A study of Rattus norvegicus with 23 samples.

Results

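ZF4-SC are muscle-derived stem cells (MDSC) of the obese Zucker rat strain, and their micro-RNAs (miRs) were counted after culture with serum of obese rats (ZFS), with serum of lean rats (ZLS), or without rat serum (C). These are 3 of the 23 libraries of the series, all from the same sequencing run of 8 libraries (the serum run), and each condition is 1 library. The labels do not say how many cultures stand behind a library. The cells came from the levator ani, a pelvic floor muscle, of female Zucker Fatty (ZF) rats aged 12 weeks, whose leptin receptor gene carries the fa mutation. They had been selected for CD34 and integrin-α7 and against CD45, CD11b, CD31 and Sca1, and were used after repeated passages in medium with 10% fetal bovine serum, which all 3 cultures shared. ZFS came from female ZF rats and was turbid with lipid, ZLS came from female Zucker Lean (ZL) rats of the same age and was clear, and each was added to 5% for 4 days. The sources give the age of the serum donors differently, so it is left out here, and they do not say whether the sera of several rats were pooled. ZFS was set against C, ZLS against C, and ZFS against ZLS. A miR counted as measured in a comparison where its reads averaged 10 or more over both libraries, which held for 279, 285 and 286 of the 792 entries counted in each library.

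A miR is a short RNA cut from a hairpin, whose 5p and 3p arms are counted separately. It pairs through its seed, bases 2 to 8, with the messenger RNAs that it represses, so that miRs with the same seed share many targets. Many miRs are made from shared transcripts, among them miR-143 and miR-145, known from smooth muscle, and the imprinted Dlk1-Dio3 region, whose many miRs are known from stem cells and regenerating muscle. The study asked whether dyslipidemic serum changes such profiles in the stem cells, with attention to miRs linked to myostatin, a secreted inhibitor of muscle mass.

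The libraries held 8218113 miR reads with ZFS, 6551400 with ZLS and 6492161 for C, and 498 of the 792 entries had at least 1 read in them. The other 294 entries had none. Levels are given as reads, as reads per 1000 miR reads of the library, or as reads per 1000000 miR reads (RPM), and a ratio is the level with serum over the level of C unless ZLS is named as its base. Since every condition was sequenced once, no ratio has a replicate error. The 95% intervals of the ratios are exact (Clopper-Pearson) and cover counting error only. Ratios were computed on the library totals, and again on TMM effective library sizes, which set the weighted trimmed mean of all log ratios to 0. A second library of untreated ZF4-SC, sequenced in another run with lipid-treated cells (the lipid run, 4395515 reads), and 2 libraries of ZF4-SC with cyclodextrin show how far libraries of a single label lay apart.

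The sequences below are those of the miRs on which the results turn, grouped by seed or by their place in the genome, with the seed in capitals. They are mature sequences of RefSeq on GRCr8, where 260 of the 296 entries measured in at least 1 ratio had a match. The miR-143-3p gene lies at chr18:57371373-57371394 on the minus strand, inside the span of the long non-coding RNA gene Carmn. The arm miR-145-3p is encoded nearby at chr18:57369997-57370017 on the same strand.
miR-143-3p: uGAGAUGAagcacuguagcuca
miR-145-3p: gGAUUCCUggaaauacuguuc
The pair miR-222-3p (chrX:6022682-6022702, plus strand) and miR-221-3p (chrX:6023246-6023268, plus strand) shares the seed GCUACAU.
miR-222-3p: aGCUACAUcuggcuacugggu
miR-221-3p: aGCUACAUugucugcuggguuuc
The miR-148 family has the seed CAGUGCA, in miR-148a-3p at chr4:81664447-81664467 (minus strand), miR-148b-3p inside the span of Copz1 and miR-152-3p inside that of Copz2.
miR-148a-3p: uCAGUGCAcuacagaacuuug
miR-148b-3p: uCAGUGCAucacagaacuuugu
miR-152-3p: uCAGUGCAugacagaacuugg
The miR-146 pair has the seed GAGAACU.
miR-146a-5p: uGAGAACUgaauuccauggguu
miR-146b-5p: uGAGAACUgaauuccauaggcugu
The let-7 miRs share the seed GAGGUAG.
let-7c-5p: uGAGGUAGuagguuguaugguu
let-7d-5p: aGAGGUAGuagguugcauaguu
Among miRs that were low with ZFS, miR-342-3p lies inside the span of Evl at chr6:133329715-133329737 (plus strand). The other 3 printed here are miRs of the Dlk1-Dio3 region, at chr6:134543460-134543480 (miR-379-5p), chr6:134578434-134578458 (miR-541-5p) and chr6:134579198-134579220 (miR-409a-5p), all on the plus strand.
miR-342-3p: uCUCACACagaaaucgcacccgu
miR-379-5p: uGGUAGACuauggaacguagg
miR-541-5p: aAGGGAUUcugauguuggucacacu
miR-409a-5p: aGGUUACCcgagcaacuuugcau
The miRs that were high with ZLS include miR-451-5p (chr10:63459585-63459606) and miR-144-3p (chr10:63459446-63459465), neighbours on the plus strand, and miR-182 and miR-96-5p, whose genes lie at chr4:59752249-59752273 and chr4:59755901-59755923 on the minus strand. The seeds of the last 2 differ only in their last base.
miR-451-5p: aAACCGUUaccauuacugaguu
miR-144-3p: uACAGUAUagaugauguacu
miR-182: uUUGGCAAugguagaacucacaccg
miR-96-5p: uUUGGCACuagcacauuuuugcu

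With ZFS a single miR, miR-143-3p, took a much larger share of the library. It made up 485 of every 1000 miR reads with ZFS, 273 with ZLS and 274 in C, a ratio to C of 1.77 with ZFS (95% interval 1.77 to 1.78) and of 0.999 with ZLS. In such bulk RNA, fewer cells of a kind and less RNA per cell cannot be told apart. All other miRs together were at 0.709 of their level in C with ZFS, and at their level in C with ZLS. Of the 14 next most abundant miRs of C, 10 took a smaller share of the total with ZFS and 4 a larger one, as the plot of the 15 most abundant miRs shows. Those with a larger share were miR-125a-5p (23.3 per 1000 with ZFS, 17.3 with ZLS and 18.1 in C), miR-191a-5p, miR-26a-5p and miR-222-3p. The most abundant of the others was miR-99b-5p, a miR of a let-7 cluster, with 113 per 1000 with ZFS, 184 with ZLS and 205 in C. Next came miR-10a-5p, encoded among Hox genes, with 87.9 per 1000 with ZFS, 123 with ZLS and 128 in C. Levels of miR-21-5p, known from growth and fibrosis, were 28.9 per 1000 with ZFS, 63.0 with ZLS and 53.5 in C. The 15 miRs together made up 88.8% of the reads with ZFS, 86.2% with ZLS and 87.4% in C.

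**Figure D1:**
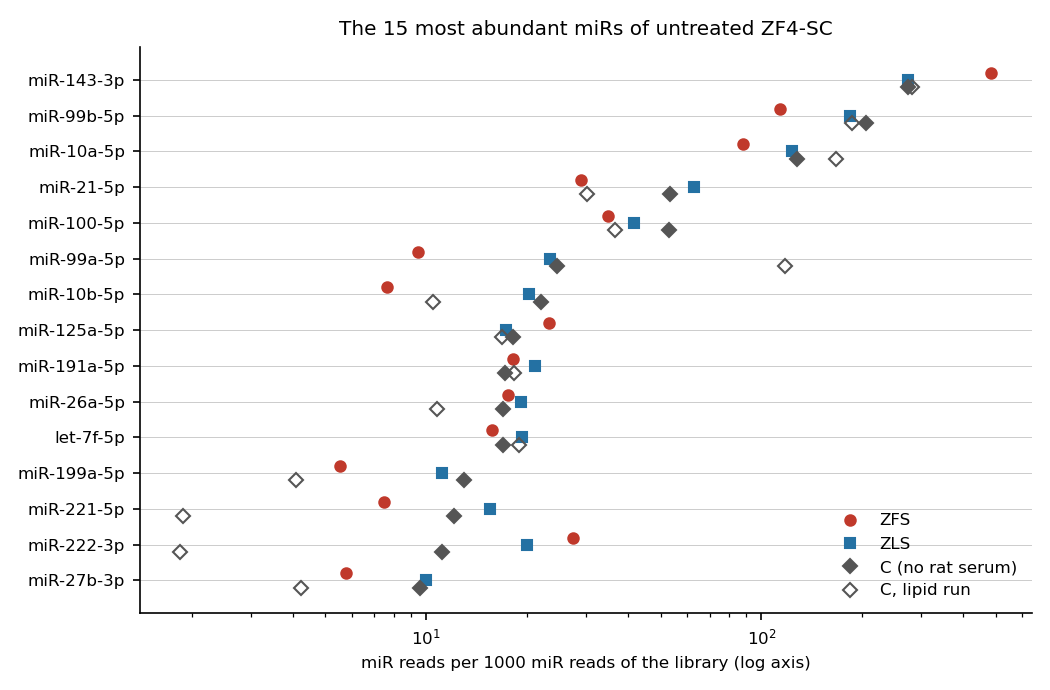
Level of the 15 most abundant miRs of C in ZF4-SC, as reads per 1000 miR reads on a log axis, for 1 library each with ZFS, with ZLS, for C in the serum run (filled diamonds) and for C in the lipid run (open diamonds). miR-143-3p was at 485 per 1000 with ZFS, apart from the other 3 libraries, whereas for miR-99a-5p the library that stood apart was C of the lipid run.

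For ZFS over C, most miRs had a ratio under 1 on the library totals. Of the 279 miRs, 79 were above 1 and 200 below, and the median ratio was 0.682. Of them 17 (6.09%) were 2-fold or more above C, and 76 (27.2%) were 2-fold or more below it. On TMM sizes, which moved every log2 ratio up by 0.418, the median ratio was 0.912, with 28 miRs (10%) 2-fold or more above C and 45 (16.1%) as far below it. The split between higher and lower thus depended on the scale. All 17 higher and 45 of the lower miRs were beyond 2-fold on both. The plot of ratio against abundance shows this shift and the miRs beyond 2-fold at all depths.

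**Figure D2:**
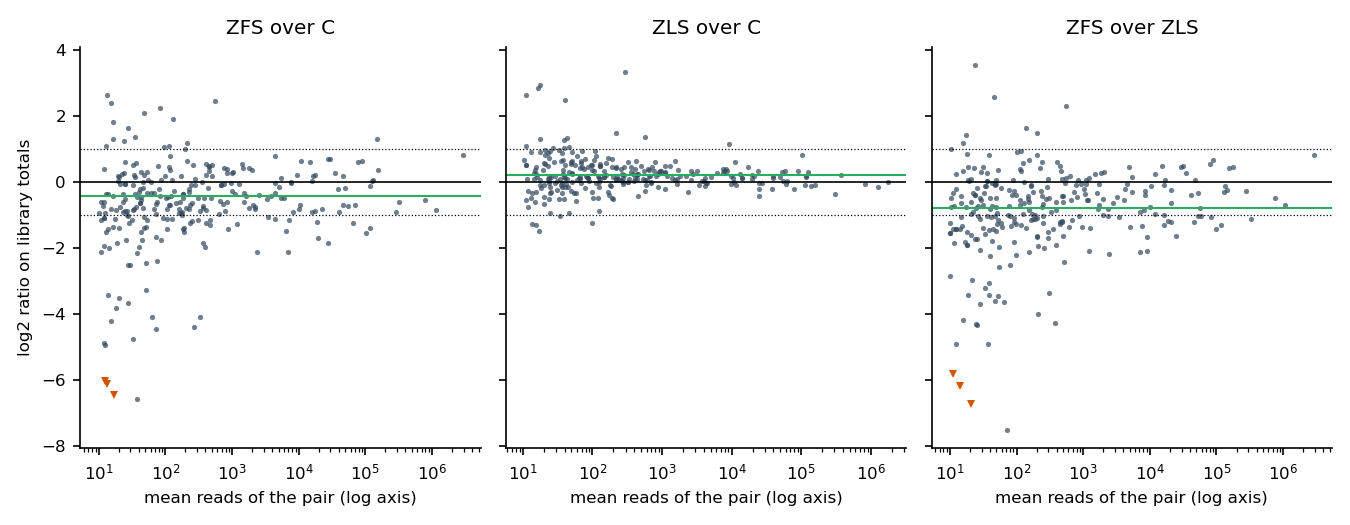
The log2 ratio on library totals against the mean reads of the pair (log axis), for miRs averaging 10 reads or more, in the 3 comparisons in ZF4-SC. Dotted lines mark 2-fold, the green line the shift that TMM removes (-0.418 for ZFS over C, 0.207 for ZLS over C, -0.767 for ZFS over ZLS), and triangles miRs at 0 in 1 library, drawn with 0.5 reads added. Points of ZLS over C lie in a narrower band than those of the other panels.

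Among miRs that averaged 100 reads or more, the highest ratio with ZFS belonged to a joined entry of the predicted miR-25-1 and miR-25-2, with 964 reads with ZFS, 154 with ZLS and 137 in C. Its ratio to C was 5.56 (4.64 to 6.70). The entry miR-129-5p, known from neurons, had 219 reads with ZFS, 56 with ZLS and 46 in C, a ratio of 3.76 (2.73 to 5.29). Another neural miR, miR-9a-5p, had 82 reads with ZFS, 11 with ZLS and 15 in C, a ratio of 4.32 (2.47 to 8.07) at a low count. The opposite arm of the second miR-129 hairpin, miR-129-2-3p, had 144 reads with ZFS, 61 with ZLS and 24 in C. Much more abundant was miR-222-3p, which represses the cell-cycle inhibitor p27, with 225283 reads with ZFS, 130421 with ZLS and 72377 in C. Its ratio to C was 2.46 (2.44 to 2.48) with ZFS and 1.79 (1.77 to 1.80) with ZLS, so that both sera lay above C. Its seed partner miR-221-3p had 21235 reads with ZFS, 19966 with ZLS and 14300 in C, ratios of 1.17 and 1.38. The miR-1b entry, which has the seed of the muscle miR-206, had 315 reads with ZFS, 90 with ZLS and 110 in C. Also above 2-fold were miR-664-2-5p (2.15) and miR-3473 (2.01).

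**Figure D3:**
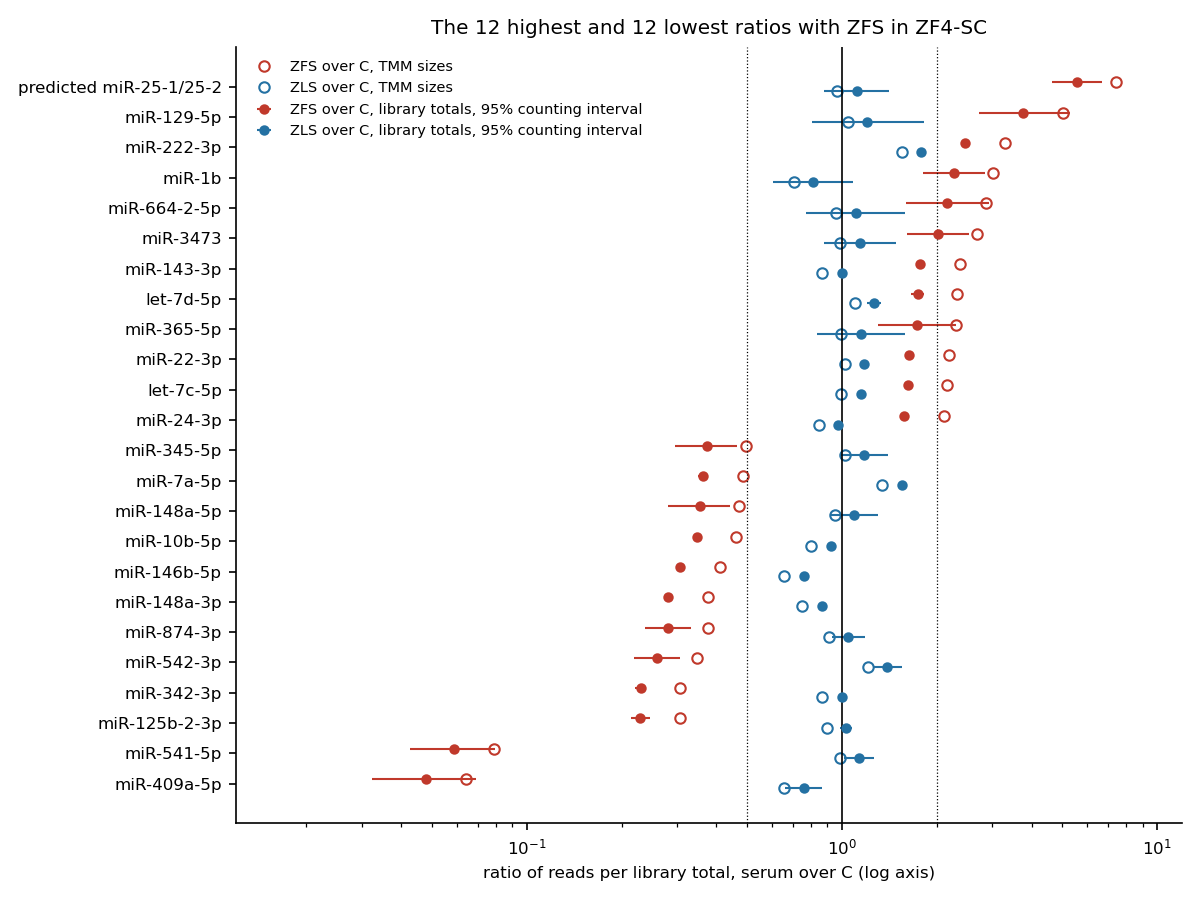
Ratio of ZFS over C (red) and of ZLS over C (blue) in ZF4-SC for the 12 highest and the 12 lowest miRs of ZFS over C that averaged 100 reads or more, on a log axis. Filled points are ratios on library totals with their 95% counting interval, open points ratios on TMM sizes, and dotted lines mark 2-fold. The ratios with ZFS run from 0.0480 to 5.56, while those with ZLS stay between 0.758 and 1.79.

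The next highest miRs lay under 2-fold on library totals and beyond it on TMM sizes. Along with miR-143-3p (2.37 on TMM sizes) these were let-7d-5p (6090 reads with ZFS, 3535 with ZLS and 2766 in C), miR-365-5p, miR-22-3p, let-7c-5p and miR-24-3p (120070, 59346 and 60314 reads with ZFS, ZLS and in C). Of the 8 measured let-7 guide arms, which restrain growth and mark differentiated cells, 5 were above C with ZFS on totals and 8 on TMM sizes, with a median ratio of 1.25 on totals and 1.67 on TMM sizes. Over all 279 miRs the medians were 0.682 and 0.912. Highest was let-7d-5p at 1.74 (1.66 to 1.82), and lowest let-7i-5p at 0.895 (0.884 to 0.907). No let-7 member was beyond 2-fold on totals, and 3 were on TMM sizes. With C of the lipid run as the control on TMM sizes, 2 of the 8 were above it and 6 below (median 0.909), and the log2 ratios of let-7d-5p and let-7c-5p were -0.34 and -0.19. The direction of let-7 thus changed with the control. The entry let-7a-5p had 0 reads in all 3 libraries, and so had miR-125b-5p, although its partner arm miR-125b-2-3p had 1061, 3807 and 3655 reads with ZFS, ZLS and in C. How reads that match several miRs were assigned is not given in the sources used here.

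Among miRs that averaged 100 reads or more, the lowest ratios with ZFS belonged to miR-409a-5p and miR-541-5p, miRs of the Dlk1-Dio3 region. Reads of miR-409a-5p numbered 31 with ZFS, 390 with ZLS and 510 in C, a ratio of ZFS to C of 0.0480 (0.0323 to 0.0690). Those of miR-541-5p numbered 46 with ZFS, 707 with ZLS and 617 in C, a ratio of 0.0589 (0.0427 to 0.0795). Of these 3 libraries only that with ZFS was low in each, and C of the lipid run was low as well (11 reads of miR-409a-5p and 8 of miR-541-5p). Of more abundant miRs, miR-342-3p, made from an intron of Evl, had 3171 reads with ZFS, 10972 with ZLS and 10897 in C. This was a ratio of 0.230 (0.221 to 0.239) with ZFS and of 0.998 (0.972 to 1.03) with ZLS. A similar pattern was seen for miR-125b-2-3p, the other arm of miR-125b, with ratios of 0.229 with ZFS and 1.03 with ZLS. The miR-146b-5p entry, which damps NF-kB signalling, had 11053 reads with ZFS, 21713 with ZLS and 28380 in C, and ratios of 0.308 (0.301 to 0.315) and 0.758 (0.745 to 0.772). With the same seed, miR-146a-5p was at 3 reads with ZFS, 47 with ZLS and 25 in C. Between 0.2 and 0.4 were also miR-542-3p (193 reads with ZFS, 827 with ZLS and 588 in C), miR-874-3p, miR-148a-5p, miR-7a-5p and miR-345-5p.

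A few miRs were at or near 0 reads with ZFS and above 20 reads with ZLS and in C of the same run. The miR-217-5p entry had 1 read with ZFS, 145 with ZLS and 75 in C. At 0 with ZFS was miR-1247-5p, with 41 reads with ZLS and 34 in C, and also miR-138-5p, with 22 and 27. Taking 3 reads in the ZFS library as the limit that a count of 0 allows, miR-1247-5p was at least 14.3-fold lower than in C and miR-138-5p at least 11.4-fold lower. The muscle miR miR-206-3p had 1 read with ZFS, 24 with ZLS and 24 in C. In C of the lipid run miR-1247-5p was also at 0 reads, while miR-217-5p had 39, miR-138-5p 23 and miR-206-3p 26.

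All 3 members of the miR-148 family were below C with ZFS on both scales, as were 200 of the 279 miRs on totals, with a median ratio of 0.437 on totals and 0.584 on TMM sizes. This family represses DNA methyltransferases. Its largest member, miR-148a-3p, had 14436 reads with ZFS, 35267 with ZLS and 40507 in C, ratios of 0.282 (0.276 to 0.287) with ZFS and 0.863 (0.851 to 0.875) with ZLS. The others were miR-152-3p at 0.437 (0.428 to 0.446) and miR-148b-3p at 0.538 (0.526 to 0.550) with ZFS. The family summed to 4975 RPM with ZFS, 12198 with ZLS, 12935 in C and 6653 in C of the lipid run. With that C as the control on TMM sizes 2 members were below it and 1 above, none beyond 2-fold (median 0.670).

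The miR-10 and miR-99 groups, abundant in these cells, differed among their members. The 5p arm of miR-10b had 62699 reads with ZFS, 133086 with ZLS and 143107 in C, a ratio with ZFS of 0.346 (0.343 to 0.349). The 5p arm of miR-10a was at 0.687 (0.685 to 0.689). For miR-99a-5p the ratio with ZFS was 0.385 (0.382 to 0.389), for miR-99b-5p 0.554 (0.552 to 0.555) and for miR-100-5p 0.656 (0.653 to 0.659). In the same list miR-125a-5p was at 1.28 (1.28 to 1.29). The counting intervals of these 6 miRs do not overlap, but leave out the spread between libraries. On TMM sizes the ratios were 0.463 for miR-10b-5p, 0.918 for miR-10a-5p, 0.515 for miR-99a-5p and 1.72 for miR-125a-5p. Those of miR-99b-5p and miR-100-5p were 0.74 and 0.877. Between C of the serum run and C of the lipid run, the ratio was 1.72 for miR-10b-5p, 0.628 for miR-10a-5p and 0.171 for miR-99a-5p. For miR-99b-5p, miR-100-5p and miR-125a-5p it was 0.905, 1.19 and 0.887. The order thus changed with the control.

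Of the 12 miRs that the study grouped as related to myostatin, 9 were below C with ZFS and 3 were at least 2-fold lower on totals, none on TMM sizes. Of all 279 miRs, 200 were below C and 76 (27.2%) at least 2-fold lower on totals. The median ratio of the 12 was 0.568 on totals and 0.760 on TMM sizes, under the medians over all miRs. With C of the lipid run as the control on TMM sizes, 7 were above it and 5 below, with a median of 1.01 against 0.924 over all 265 miRs measured there. The 12 summed to 48592 RPM with ZFS, 91570 with ZLS, 83426 in C and 49100 in C of the lipid run. The study took these miRs by their relevance to myostatin and from ratios between male MDSC, of which the series also holds libraries. A direction of the list as a set was not tested. At least 2-fold lower on totals were miR-199a-5p at 0.427 (0.423 to 0.432), miR-30e-5p at 0.455 (0.440 to 0.471) and miR-214-3p at 0.478 (0.455 to 0.502). The pair miR-199a and miR-214 is encoded by a single transcript. The level of miR-21-5p was at 0.5405 (0.538 to 0.543) with ZFS and 1.18 (1.17 to 1.18) with ZLS. Members above C with ZFS were miR-23a-3p at 1.15 (1.13 to 1.16), miR-27a-3p at 1.04 and miR-101a-3p at 1.10. With ZLS the same 12 miRs had ratios of 0.861 to 1.27 on totals, and none was beyond 2-fold. Among the 20 other miRs of the study's tables, 17 were below C with ZFS, with a median of 0.638 on totals and 0.852 on TMM sizes, 6 of them beyond 2-fold on totals and 4 on TMM sizes. Against C of the lipid run on TMM sizes 8 of these 20 were above and 12 below (median 0.905).

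The miR-322 and miR-503 cluster and the miR-188 to miR-660 cluster, both on the X chromosome, lay low with ZFS. In the miR-322 and miR-503 cluster, known to hold back division of muscle precursors, all 8 measured arms were below C on totals and 7 on TMM sizes, with a median ratio of 0.461 on totals and 0.616 on TMM sizes. Lowest were miR-503-5p at 10 reads with ZFS, 66 with ZLS and 45 in C, and miR-322-5p at 19, 90 and 82. Of the 5 measured arms of the miR-188 to miR-660 cluster, which lies in an intron of Clcn5, all were below C on totals and 4 on TMM sizes. The median was 0.429 on totals and 0.573 on TMM sizes, and miR-362-5p had 556 reads with ZFS, 1862 with ZLS and 1177 in C. The miR-17/92 and miR-106b/25 miRs, which promote proliferation, were below C in 7 of 7 on both scales (median 0.584 on totals and 0.781 on TMM sizes), where 200 of all 279 miRs were below C on totals. With C of the lipid run as the control on TMM sizes, 3 of these 7 were above it and 4 below (median 0.864). They summed to 1601 RPM with ZFS, 2911 with ZLS, 2533 in C and 1254 in that other C library. The miR-322 and miR-503 arms were below it in 6 of 8 (median 0.439), and the arms of the miR-188 to miR-660 cluster in 5 of 6 (median 0.592). With ZLS the arms of the miR-322 and miR-503 cluster were above C in 8 of 8 on totals and in 6 on TMM sizes, with a median of 1.27 on totals and 1.10 on TMM sizes.

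The group farthest from C with ZFS was the Dlk1-Dio3 region. Of its 9 measured miRs 8 were at least 2-fold lower on totals and 7 on TMM sizes, and the median ratio was 0.0790 on totals and 0.106 on TMM sizes. Its 38 entries summed to 190 reads (23.1 RPM) with ZFS, 1459 reads (223 RPM) with ZLS and 1443 reads (222 RPM) in C. Besides miR-409a-5p and miR-541-5p, miR-379-5p had 3 reads with ZFS, 71 with ZLS and 63 in C, and miR-127-3p, which opposes Rtl1, had 5, 51 and 50. The exception was miR-411-5p, with 63 reads with ZFS, 56 with ZLS and 47 in C. Sums in ZL4-SC, the stem cells of lean rats, were 103 RPM with ZFS, 75.4 with ZLS and 70.0 in C. In the untreated ZF4-SC library of the lipid run, however, the same entries summed to 125 reads, or 28.4 RPM, close to ZFS. Against it 4 miRs of the region were measured, 3 above it and 1 below on TMM sizes (median 1.27). That library had 11 reads of miR-409a-5p and 8 of miR-541-5p, so that with it as the control the log2 ratios of ZFS on TMM sizes turned to 0.62 and 1.65. The low level of both and of the sum thus holds against C of the serum run and against ZLS, and not against the other C library. In contrast, miR-127-3p, the 1 list member below that library, was below both C libraries (0.106 and 0.0719 on TMM sizes). So was miR-409b (0.0799 and 0.197), which is not among the 38 entries. What set the untreated libraries apart was not tested.

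**Figure D4:**
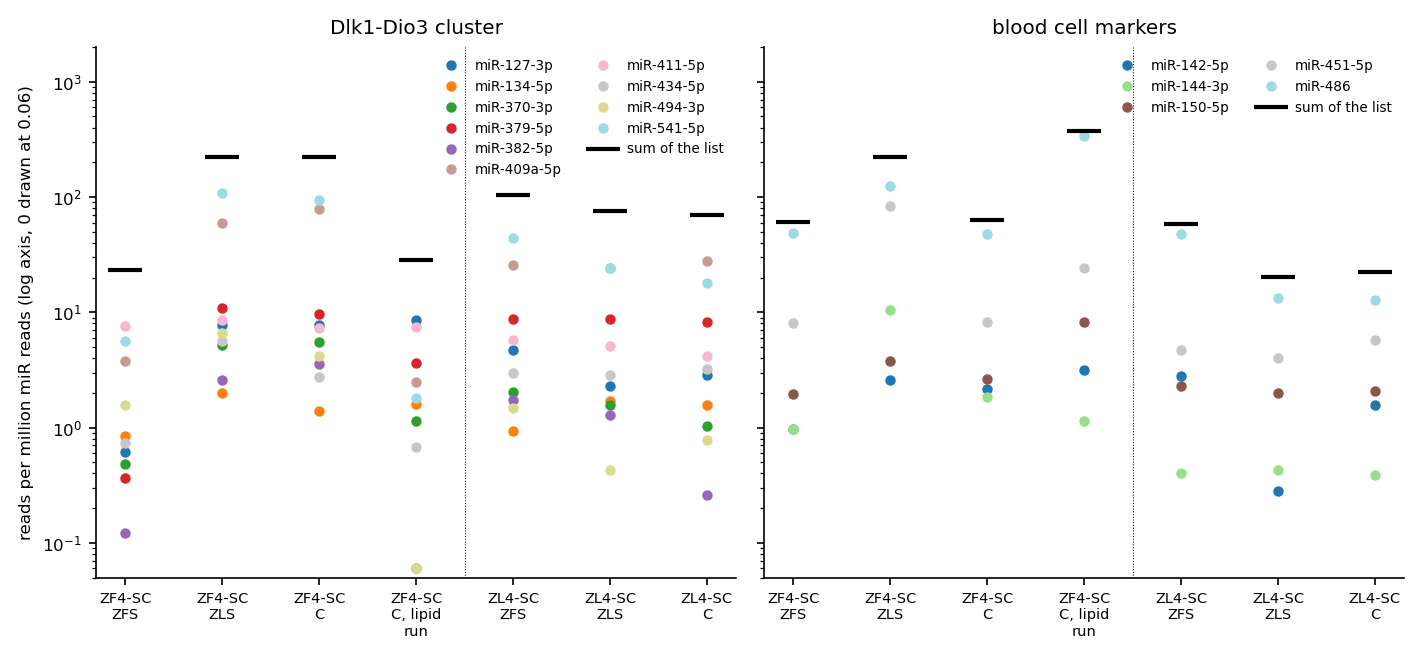
Level in RPM (log axis) of the measured members of the Dlk1-Dio3 region (left) and of the blood cell marker list (right), as points, and the sum over the whole list, as a bar, in 7 libraries. The Dlk1-Dio3 sum is 23.1 with ZFS, 223 with ZLS, 222 in C and 28.4 in C of the lipid run. The blood cell sum is 60.6, 224, 62.9 and 377 in the same libraries.

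With ZLS the profile lay much closer to C. Of 285 miRs, 201 were above C and 84 below on totals, with a median ratio of 1.12, or 0.975 on TMM sizes. On totals 15 miRs (5.26%) were 2-fold or more above C and 5 (1.75%) as far below it, and on TMM sizes 10 (3.51%) and 8 (2.81%). Of the 164 miRs that averaged 100 reads or more, 4 were 2-fold or more above C on totals and none as far below it. Those 4 were miR-451-5p, miR-96-5p, miR-486 and miR-182.

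The largest ratio was that of miR-451-5p, an erythroid miR, with 67 reads with ZFS, 544 with ZLS and 53 in C. Its ratio to C was 0.999 (0.686 to 1.46) with ZFS and 10.2 (7.66 to 13.7) with ZLS. The neighbouring miR-144-3p, also erythroid, had 8 reads with ZFS, 68 with ZLS and 12 in C, a ratio with ZLS of 5.61 (3.01 to 11.4). Another red-cell miR, miR-486, had 397 reads with ZFS, 817 with ZLS and 312 in C, a ratio with ZLS of 2.60 (2.27 to 2.97). All 5 measured miRs of the blood cell list were above C with ZLS, 3 of them beyond 2-fold on both scales. Of all 285 miRs, 201 were above C on totals and 10 were 2-fold or more higher on both scales. Between the 2 libraries with cyclodextrin, all 5 blood cell miRs measured there were also beyond 2-fold (median ratio 16.4 on totals). On TMM sizes miR-451-5p and miR-486 were at 14.3 and 14.2 in that pair, farther from 1 than with ZLS. The list summed to 498 reads (60.6 RPM) with ZFS, 1471 (224 RPM) with ZLS and 408 (62.9 RPM) in C, with miR-142-3p, a miR of white cells, at 0 in all 3. These miRs are also found in serum, and whether they came from cells or from the added serum was not tested. In ZL4-SC the list summed to 57.9 RPM with ZFS, 20.1 RPM with ZLS and 22.6 RPM in C, and in C of ZF4-SC in the lipid run to 377 RPM. Against that control the log2 ratio of miR-486 with ZLS was -1.89 on TMM sizes, and miR-451-5p was still 2.48-fold higher.

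The sensory miRs miR-182 and miR-96-5p, made from a shared transcript, also stood above C with ZLS. For miR-182 there were 5134 reads with ZFS, 12896 with ZLS and 5660 in C, ratios of 0.717 (0.690 to 0.744) with ZFS and 2.26 (2.19 to 2.33) with ZLS. For miR-96-5p there were 105 reads with ZFS, 320 with ZLS and 112 in C, a ratio with ZLS of 2.83 (2.28 to 3.54). In ZL4-SC it was ZFS with which both stood above C on totals, at 2.24 to 2.41, against 0.919 to 1.05 with ZLS. With the C library of the lipid run as the control the log2 ratio of miR-96-5p with ZLS was -0.41 on TMM sizes. The next highest were miR-217-5p at 1.92 (1.44 to 2.57) and miR-222-3p at 1.79. Others of the 12 highest ran from miR-877 (1.75) to miR-126a-3p, an endothelial miR, with 513 reads with ZLS and 327 in C (1.55).

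Lower with ZLS, within 2-fold on totals, were a joined entry of miR-3084 miRs (89 reads with ZLS and 162 in C, a ratio of 0.544), miR-1843a-3p (0.703), miR-409b (0.716), miR-181c-3p (0.716) and miR-504 (0.717). Of abundant miRs, miR-100-5p was at 0.785 (0.781 to 0.789), and miR-146b-5p at 0.758. Every let-7 guide arm was above C on totals (8 of 8, median 1.13), but only 2 on TMM sizes (median 0.978), so that no direction can be given.

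Setting ZFS against ZLS compares both sera in the same cells without C. Of 286 miRs, 62 were higher and 224 lower with ZFS on totals, with a median ratio of 0.615. With ZFS 7 (2.45%) were 2-fold or more above ZLS and 115 (40.2%) as far below it on totals, and 44 (15.4%) and 43 (15%) on TMM sizes, which moved all log2 ratios up by 0.767. Among miRs that averaged 100 reads or more, the highest were the predicted miR-25-1 and miR-25-2 entry at 4.99 (4.21 to 5.96), miR-129-5p at 3.12 (2.31 to 4.26) and miR-1b at 2.79 (2.20 to 3.57). That of miR-143-3p was 1.77 (1.77 to 1.78) on totals and 3.02 on TMM sizes. Those of miR-24-3p and miR-455-3p, a cartilage miR, were 1.61 and 1.52 on totals, and 2.75 and 2.59 on TMM sizes. The lowest of them were miR-541-5p at 0.0519 (0.0376 to 0.0699), miR-409a-5p at 0.0634 (0.0425 to 0.0914) and miR-451-5p at 0.0982 (0.0750 to 0.127). They were followed by miR-542-3p, miR-125b-2-3p, miR-340-5p, miR-342-3p, miR-7a-5p, miR-362-5p and miR-450a-5p, between 0.186 and 0.254. For miR-7a-5p there were 4081 reads with ZFS, 13872 with ZLS and 8877 in C, so that the sera lay on opposite sides of C. At 0 with ZFS, miR-1247-5p was at least 17.1-fold lower than with ZLS.

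The ratios with serum were set beside those of libraries that share a label. Between the C libraries of the serum and the lipid run, 40.1% of 274 miRs were beyond 2-fold on totals and 38.7% on TMM sizes. Between the 2 libraries with cyclodextrin it was 47.3% and 46.0% of 224, of which the shallower had 803975 reads. The same shares were 33.3% and 26.2% for ZFS over C, 7.02% and 6.32% for ZLS over C, and 42.7% and 30.4% for ZFS over ZLS. Thus by this share both pairs of libraries of the same label lay farther apart than ZFS and C of the serum run. Of the 62 miRs beyond 2-fold with ZFS on both scales, 28 lay farther from 1 than in either pair of the same label. The 28 included miR-125b-2-3p (0.306 on TMM sizes, against 0.535 and 0.810 in the pairs of cyclodextrin and of C), miR-146b-5p (0.411, against 0.599 and 0.862) and miR-148a-3p (0.376, against 0.636 and 1.91), but not miR-222-3p (3.29, against 2.18 and 4.96). Nor did they include miR-342-3p (0.307, against 0.302 and 0.79), miR-129-5p (5.03, against 0.0853 and 2.84) or miR-1b (3.02, against 8.79 and 1.97). Under 2-fold on totals, and so not among the 62, miR-143-3p (2.37 on TMM sizes, against 0.637 and 0.796) and miR-24-3p (2.10, against 0.851 and 0.720) also lay farther from 1 than in both pairs.

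**Figure D5:**
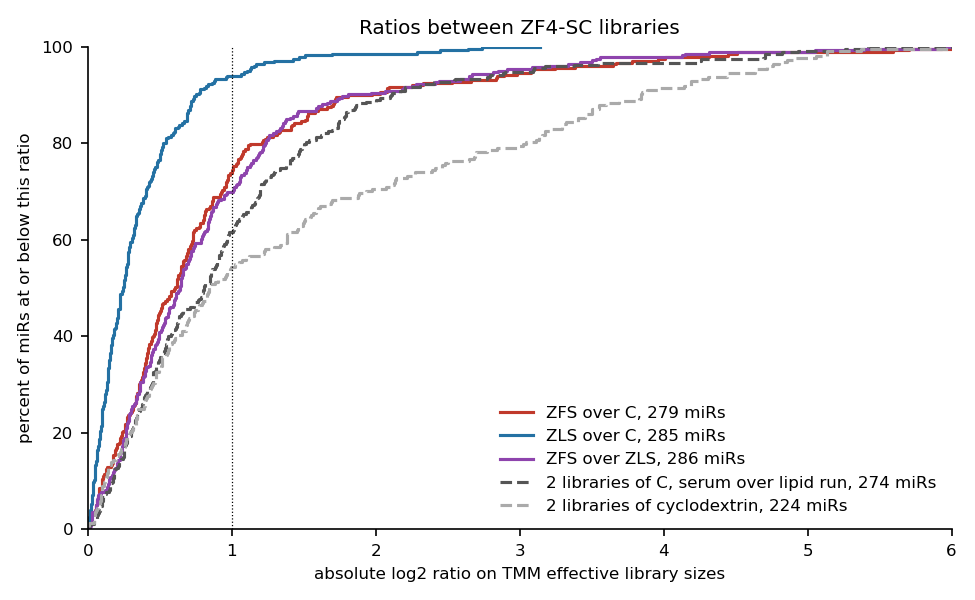
Percent of miRs at or below each absolute log2 ratio on TMM sizes, for the 3 comparisons with serum (solid lines) and for the pairs of libraries that share a label (dashed lines), each over miRs averaging 10 reads or more. At 1 on the horizontal axis (dotted line) the share beyond 2-fold was 26.2% for ZFS over C, 6.32% for ZLS over C, 30.4% for ZFS over ZLS, 38.7% for the pair of C and 46.0% for the pair of cyclodextrin.

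Taking the C library of the lipid run as a further control, 258 miRs were measured with both. On TMM sizes, 12 miRs with ZFS were 2-fold or more above both controls and 25 as far below both, while 3 were beyond 2-fold in opposite directions. The 12 included miR-222-3p (3.29 and 15.2), miR-145-3p, the partner of miR-143 (2.04 and 2.84), miR-129-5p (5.03 and 13.3) and miR-186-5p (2.09 and 3.53). Among the 25 were miR-342-3p (0.307 and 0.226), miR-125b-2-3p (0.306 and 0.231), miR-146b-5p (0.411 and 0.330), miR-146a-5p (0.127 and 0.0482), miR-542-3p (0.347 and 0.436) and miR-217-5p (0.0141 and 0.0140). Both ratios share the ZFS library, so they do not replicate the treatment. Besides miR-409a-5p and miR-541-5p, the named miR-199a-5p, miR-7a-5p and miR-664-2-5p, each 2-fold or more from C on totals, changed sides with the lipid-run control, to log2 ratios of 0.47, 0.04 and -0.36. The list members miR-30e-5p and miR-452-5p, as far below C on totals, changed sides as well. Of miRs nearer to C, let-7c-5p and let-7d-5p were among those that also did. For ZLS, 5 miRs lay 2-fold or more above both controls, miR-451-5p and miR-144-3p among them, and 1 as far below both.

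A test was possible only by borrowing the spread of the 2 duplicated conditions, C and cyclodextrin, in a fit of 14 female libraries. In edgeR's quasi-likelihood test with Benjamini-Hochberg adjustment, 0 of 261 miRs (0%) differed between ZFS and C. The same was found for ZLS and C (0%) and for ZFS and ZLS (0%). At an unadjusted p under 0.05 there were 6, 0 and 1 miRs, and DESeq2 also called 0, with 17, 1 and 10 unadjusted. For ZFS against C, the 6 were miR-222-3p and miR-9a-5p, higher, and miR-99a-5p, miR-125b-2-3p, miR-146a-5p and miR-146b-5p, lower. In edgeR's fit the log2 fold change of miR-222-3p was 2.39 (adjusted p = 1), and that of miR-143-3p 0.99 (adjusted p = 1). Calls appeared when the C library of the serum run was left out, so that C was the library of the lipid run alone and the spread came from cyclodextrin. The miRs then called with ZFS were miR-222-3p (log2 fold change 3.90), miR-99a-5p (-3.63) and miR-486 (-2.80). With ZLS they were miR-222-3p (2.85), miR-221-5p (2.46) and miR-99a-5p (-2.91). Serum and run cannot be told apart in that fit. Between the C libraries, serum over lipid run on TMM sizes, these miRs were at 4.96 (miR-222-3p), 5.3 (miR-221-5p), 0.171 (miR-99a-5p) and 0.117 (miR-486). With no filter on low counts miR-222-3p alone was called for ZFS. In the fit of 14 libraries, the coefficient of variation between libraries of a label was 0.571. The spread rested on 2 residual degrees of freedom. In counts simulated with this spread, the test of ZFS against C called 0 of 58 miRs changed 4-fold and 38 of 58 changed 16-fold. A count of 0 calls thus does not show that miRs were unchanged.

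ZL4-SC, stem cells from the levator ani of lean rats of the same age, were cultured with the same sera and sequenced in the same run. On totals, miR-143-3p had a ratio of ZFS over C of 1.77 in ZF4-SC and 1.43 in ZL4-SC, where its levels were 444979 RPM with ZFS, 340153 RPM with ZLS and 310680 RPM in C. On TMM sizes these ratios were 2.37 and 1.13. TMM moved log2 ratios of ZFS over C up by 0.418 in ZF4-SC and down by 0.337 in ZL4-SC. The ratios that follow are on totals, so their differences between the cells change with the scale. On totals, the ratio for miR-222-3p was 2.46 in ZF4-SC and 4.20 in ZL4-SC, for the predicted miR-25-1 and miR-25-2 entry 5.56 and 8.77, and for miR-24-3p 1.57 and 1.97. For miR-342-3p the ratio with ZFS was 0.230 in ZF4-SC and 0.517 in ZL4-SC, for miR-10b-5p 0.346 and 0.493, and for miR-874-3p 0.281 and 0.473. In contrast, for miR-146b-5p it was 0.308 in ZF4-SC and 1.42 in ZL4-SC, for miR-1b 2.26 and 0.434, and for miR-541-5p 0.0589 and 2.45. Of the 12 myostatin-related miRs, 3 were at least 2-fold lower with ZFS in ZF4-SC and 0 in ZL4-SC on totals, and 0 in both on TMM sizes, where of all miRs 76 of 279 in ZF4-SC and 18 of 268 in ZL4-SC were as low on totals. For the blood cell miR miR-451-5p, the ratio with ZLS was 10.2 in ZF4-SC and 0.697 in ZL4-SC. The difference of the effects between the cells was tested in the same edgeR fit, where a lack of calls does not show that the cells responded alike. It was called for 0 of 261 miRs (0%) for ZFS and for 0 (0%) for ZLS, with 1 and 0 at an unadjusted p under 0.05, and DESeq2 called 0, with 1 and 1 unadjusted. The 1 miR was miR-9a-5p, whose log2 difference, ZF4-SC minus ZL4-SC, was 3.56 (adjusted p = 1 in edgeR's test). Without the ZF4-SC C library of the serum run, miR-486 and miR-99a-5p were called for the ZFS effect. Their log2 differences, ZF4-SC minus ZL4-SC, were -4.38 and -3.14. In that fit C of ZF4-SC came from the lipid run and C of ZL4-SC from the serum run, so cells and run cannot be told apart.

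As a check of the label, miRs of several lists that define other tissues were few in ZF4-SC. The 7 striated muscle entries summed to 16 reads with ZFS, 47 with ZLS and 45 in C, with miR-1-3p at 0, 3 and 0 reads and miR-133a-3p at 0 in all 3. Outside this list, miR-1b, which has the seed of miR-206, had 315 reads with ZFS and 110 in C. The 5 epithelial entries summed to 15, 20 and 23 reads with ZFS, ZLS and in C. The endothelial list matched 0 entries by name, although miR-126a-3p was measured, so it gave no check. The liver miR miR-122-5p had 8 reads with ZFS, 10 with ZLS and 8 in C, although the list's miR-192-5p, which other tissues also express, had 8586, 8264 and 6794. The 9 pluripotency entries summed to 0, 9 and 16 reads. The neural list, however, summed to 5440 reads with ZFS, 14940 with ZLS and 9601 in C, mostly miR-7a-5p, and the blood cell list to 498, 1471 and 408. No miR fixed here marks MDSC, so the label was checked only by the levels of miRs of other tissues.

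Arms cut from the same hairpin were compared by their ratios. Of 66 hairpins with both arms measured, 4 had both arms at least 2-fold from C in the same direction on totals, none in opposite directions, and 24 had arms whose ratios lay more than 2-fold apart, against 2 of 64 with ZLS. The median fold between arms was 1.67 with ZFS and 1.20 with ZLS. Of all miRs, 33.3% were 2-fold or more from C on totals with ZFS and 7.02% with ZLS. The same counts for miRs of different hairpins were not computed, so those for arms show nothing particular to arms. In the pair of miR-145, the 3p arm had 102822 reads with ZFS, 55219 with ZLS and 53186 in C, a ratio with ZFS of 1.53 (1.51 to 1.54). Its 5p arm had 40301, 65776 and 51387 reads, a ratio of 0.620 (0.611 to 0.628). Both arms of miR-143 were above C, the 5p arm at 1.17 (1.13 to 1.20). In the miR-222 and miR-221 transcript the 3p arms were above C, at 2.46 and 1.17, and so was miR-222-5p at 1.37, whereas miR-221-5p was at 0.619 (0.612 to 0.625). With ZLS all 4 of these arms were above C on totals and 3 on TMM sizes.

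Among the remaining lists, described for ZFS over C by their median on totals and on TMM sizes, the miR-221 and miR-222 arms (1.27 and 1.69) and the arms of miR-143 and miR-145 (1.33 and 1.78) lay highest of those with at least 3 members, together with the neural list (1.32 and 1.76). In the neural list, miR-9a-5p and miR-129-5p were at least 2-fold higher, and miR-138-5p and miR-7a-5p at least 2-fold lower, so that its members did not share a direction. The p53-induced miRs (5 measured) had a median of 0.941 on totals and 1.26 on TMM sizes, and the miR-30 guide arms (5) of 0.874 and 1.17. The inflammation list (4) had 0.408 and 0.545, with miR-155-5p above C at 1.37 (1.03 to 1.82). For miR-15 and miR-16 miRs (3), which share their seed with miR-322-5p, the medians were 0.503 and 0.672. The lipid and insulin list (6) had 0.594 and 0.794, with miR-335 at 36 reads with ZFS, 23 with ZLS and 12 in C. Of the 2 miR-224 and miR-452 members, miR-224-5p was at 0.549 (0.495 to 0.608) with ZFS and at 1.41 (1.29 to 1.53) with ZLS. That list summed to 151.7 RPM in C and 6.143 RPM in C of the lipid run. Against the latter on TMM sizes both members were higher with either serum (median 19.7 with ZFS and 43.9 with ZLS). Their direction with ZFS thus changed with the control. Lists of 2 miRs, miR-29 and miR-26, stayed within 2-fold with both sera.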

How the data were processed

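RNA of the cells was converted to small RNA libraries and sequenced by a service (Norgen Biotek). The deposited files hold whole-number read counts per miR, which the authors obtained by matching reads to miRBase 18.0; the aligner, its settings and the handling of reads that match several miRs are not given in the sources used here. Each sequencing run is a table of 792 entries. Groups came from the labels.

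Counts were divided by library totals, or by TMM effective sizes of edgeR 4.0.16, and the ratio of 2 libraries was given with its exact 95% (Clopper-Pearson) interval. Entries averaging under 10 reads in a pair were left out, and "2-fold" marks descriptive calls. The edgeR quasi-likelihood test (R 4.3.3) was fitted to 14 female libraries with Benjamini-Hochberg adjustment at 0.05, with DESeq2 1.42.0 as an alternative. Named miRs were the 12 highest and 12 lowest of each ratio averaging 100 reads or more and on the same side of 1 on TMM sizes, the 15 most abundant of C, those at 0 against 30 or more reads, and members of 36 lists. The lists and miRs were chosen with earlier results of these data known. The second C library as a control was added after seeing the data. A few miRs named for both controls, arms or low counts fall outside this rule and were chosen after their values were seen. Python 3.11.15, scipy 1.17.1, pandas 2.3.3 and numpy 2.4.6 were used, and the computations were tested on simulated data. Intervals cover counting error only, since each condition was 1 library. The paper names no molecular identifiers for the reads.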

Additional observations from a re-analysis of the deposited data

How the results depend on the processing

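Counts of miRs 2-fold or more from C or from ZLS moved with the scaling and the filter. For ZFS over C (17 higher and 76 lower on totals) they were 28 and 45 on TMM sizes, 29 and 42 with median-of-ratios factors, 6 and 30 among miRs averaging 100 reads or more, 65 and 158 with no filter, and 5 and 46 where the whole counting interval had to lie beyond 2-fold. With C of the lipid run as control on TMM sizes, an alternative chosen after seeing the data, 46 were higher. For ZLS over C (15 and 5) the lower count was 8 on TMM sizes and 8 with median-of-ratios factors. The pair of counts was 4 and 0 at 100 reads or more, 98 and 67 with no filter, 57 and 44 with C of the lipid run, and 7 and 0 with the whole interval. For ZFS over ZLS (7 and 115) they were 44 and 43 on TMM sizes, 35 and 46 with median-of-ratios factors, 19 and 61 on totals without the 3 most abundant miRs, 3 and 51 at 100 reads or more, and 49 and 205 with no filter, while 65 were lower with the whole interval. The cause was not tested, except that stricter filters and intervals leave fewer miRs by construction.

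Of named miRs 2-fold or more from C on totals, 7 changed sign in log2 ratio on TMM sizes with C of the lipid run. For ZFS over C these were miR-199a-5p (0.47), miR-409a-5p (0.622), miR-541-5p (1.65), miR-664-2-5p (-0.356) and miR-7a-5p (0.0406), and for ZLS over C miR-486 (-1.89) and miR-96-5p (-0.405). Of 517 values of single miRs under alternatives, 51 changed sign, these 7 among them, and 183 stayed within their counting interval.

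In the edgeR test, leaving out 1 library of a duplicated condition gave 0 to 3 calls for ZFS against C, 0 to 3 for ZLS against C and 0 to 2 for the difference of the ZFS effect between ZF4-SC and ZL4-SC, with calls only without the C library of the serum run. With no filter on low counts 1 miR was called for ZFS against C. No paired analysis was possible because the groups compared are single libraries that share fewer than 2 replicate numbers. Depth limits miRs of few reads, and the single library of each condition limits every ratio.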
